A study of Mus musculus with 6 samples.

Results

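Protocadherin genes were described in RNA of CD31-sorted retinal cells from 6 mouse pups, as a family whose symbols begin with Pcdh followed by a, b, g or a digit. The rule took 69 of the 19124 gene symbols in the deposited table (97 of its 34035 transcript entries). Of the 69, 57 belong to the 3 gene clusters (14 Pcdha, 21 Pcdhb and 22 Pcdhg) and 12 are non-clustered genes that stand alone. The pups were C57BL/6, each received 75 µg of Z-4-HO-Tamoxifen per day from postnatal day 1 to 4, and retinas were digested at postnatal day 7. The 3 Ctrl pups had the genotype Pdgf{beta}CreERT2neg Rnf20p/p and the 3 KO pups Pdgf{beta}CreERT2pos Rnf20p/p, so both groups carried the Rnf20 alleles and the tamoxifen treatment and differed in the recombinase. Pdgfb-CreERT2 is a Cre recombinase that acts in endothelial cells once tamoxifen is given, and Rnf20 is a ubiquitin ligase that acts on histone H2B. The labels name a different pup as the source of each library and give no sex.

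Protocadherins are transmembrane proteins of the cadherin superfamily that bind the same protocadherin on a neighbouring cell. In each of the Pcdha and Pcdhg clusters a row of alternative first exons, each with its own promoter, is joined to a shared set of last exons, whereas each Pcdhb gene is a single exon. Neurons choose different first exons and so carry different surface combinations. These serve self-avoidance of branches, as in starburst amacrine cells of the retina, and the survival of retinal interneurons. The last members of the clusters, called C-type, are used in a less variable way. Non-clustered protocadherins are single genes with varied roles in adhesion, migration and, for Pcdh15, in mechanosensory and photoreceptor cells.

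Libraries held 14581701 to 30692948 counts with 1 entry per gene. Of 16217 genes tested with edgeR (quasi-likelihood, with p-values adjusted by Benjamini-Hochberg), 948 were higher and 720 lower in KO, so 56.8% of the calls were higher. That share was 44.3% with an offset for GC content and 45.0% with scaling by library size alone. Leaving out Ctrl 1, Ctrl 2, Ctrl 3 or KO 2 left 0 of all genes past the threshold by the same test, with 4005, 3434, 3479 and 3576 genes at an unadjusted p under 0.05. Rnf20 itself was 47.9, 57.1 and 56.8 CPM (counts scaled to library size, here with TMM factors) in Ctrl 1, 2 and 3 against 39.1, 31.0 and 31.7 CPM in KO 1, 2 and 3, a log2 fold change of −0.67 (adjusted p = 0.101 by edgeR's quasi-likelihood test). RNA of other cell types was present, and marker sums of several types differed between the groups. The 15 endothelial markers summed to 3821 to 5798 CPM in Ctrl against 11686 to 15989 in KO. The 14 rod and cone markers summed to 16522 to 29738 CPM in Ctrl against 4023 to 17979 in KO. The 15 bipolar and amacrine markers summed to 2569 to 3041 CPM in Ctrl against 877.8 to 1634 in KO. The sum in KO 3 lay inside the Ctrl range for rods and cones. The 14 microglial markers summed to 12995 CPM in KO 2 against 238.3 to 2490 in the other 5 libraries, so KO 2 stood apart in them. No listed marker of these 4 sets was at 0 in every library. In such sorted bulk RNA, fewer cells of a type and less RNA per cell cannot be told apart. Sex also moved with genotype. Xist, made from the inactive X chromosome of females, was 108.5 to 208.7 CPM in the Ctrl libraries and 0.0343 to 4.42 in the KO libraries. Ddx3y, on the Y chromosome, was 0 to 0.130 CPM in Ctrl against 23.9 to 151.6 in KO. Genotype and sex therefore cannot be told apart in any result here.

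All 69 members passed the filter on low counts. By edgeR's quasi-likelihood test (Benjamini-Hochberg), 1 rose in KO and 16 fell, against a background of 5.85% of all tested genes called higher and 4.44% called lower. The member that rose was Pcdh1. The 16 that fell were the 14 Pcdha rows, Pcdh15 and Pcdh11x, but the 14 Pcdha rows count the same reads again and again and are not 14 separate results. By DESeq2 on the same counts, where 12.6% of genes were called higher and 9.49% lower, 3 members were higher (Pcdh1, Pcdh12 and Pcdh19) and 18 lower. In the authors' deposited table, where 12.7% of entries were higher and 9.51% lower, 3 non-clustered genes were higher, and 3 non-clustered, 14 Pcdha and 1 Pcdhb gene lower. Limma-voom (background 6.09% higher, 5.69% lower) called 1 non-clustered member higher and 3 lower, with 14 Pcdha and 1 Pcdhb gene lower. With GC offsets edgeR (5.90% higher, 7.40% lower) called Pcdh19 higher and Pcdh15 and the Pcdha rows lower, and with library size alone (4.21% higher, 5.16% lower) it called Pcdh1 higher and Pcdh9, Pcdh11x, Pcdh15 and the Pcdha rows lower. Over all 69 members the median log2 fold change was −0.46, and 39 of the estimates were below 0, beside a median of 0.03 and 49.0% of estimates below 0 over all tested genes. The 69 include the 14 Pcdha rows, all below 0, and the 22 Pcdhg rows, all above 0. Rows of each of these clusters share reads, so the 69 are not separate measurements.

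Pcdh1, an adhesion protein of epithelia and endothelia (NM_029357, chromosome 18, 38185914 to 38212048, minus strand, GRCm38.p6), stood at 21.6, 55.6 and 50.3 CPM in Ctrl 1, 2 and 3 against 146.1, 194.0 and 109.7 CPM in KO 1, 2 and 3. Every KO library was above every Ctrl library, and Ctrl 1 was the lowest. The group means were 42.5 ± 18.3 and 149.9 ± 42.3 CPM (SD, n = 3 each). The log2 fold change was 1.82 (SE 0.401), and it was past the threshold of edgeR's quasi-likelihood test (Benjamini-Hochberg adjusted p = 0.0324). It was 1.29 and did not pass with GC offsets (adjusted p = 0.0906 by the same edgeR test), and it did not pass without Ctrl 1, Ctrl 2, Ctrl 3 or KO 2 (log2 fold changes from 1.50 to 2.06). The endothelial list, of which 9 of 15 markers rose and 0 fell, had a median log2 fold change of 1.41, and the part of these markers' shift in Pcdh1 was not tested.

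Pcdh12, an adhesion protein of endothelial junctions and of the placenta (NM_017378, chromosome 18, 38267092 to 38284401, minus strand), lies close to Pcdh1. It was 12.5, 35.5 and 30.4 CPM in the Ctrl libraries and 89.9, 88.9 and 39.0 CPM in the KO libraries. The groups did not overlap, though KO 3 lay close to Ctrl 2. Its log2 fold change of 1.47 (SE 0.469) missed the threshold of edgeR's quasi-likelihood test (adjusted p = 0.0786), while DESeq2 called it (1.51, adjusted p = 0.0152). Endothelial markers moved beside it as given for Pcdh1, and their part was not tested.

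Pcdh19, a member linked to epilepsy in females and located on the X chromosome (133582860 to 133689044, minus strand), was 1.13, 5.53 and 7.23 CPM in Ctrl 1, 2 and 3 against 30.5, 11.1 and 10.9 CPM in KO 1, 2 and 3. The groups did not overlap, and KO 1 stood far above KO 2 and KO 3. The log2 fold change was 1.93 (SE 0.709), short of the threshold of edgeR's quasi-likelihood test (adjusted p = 0.114). With GC offsets it was 2.49 and passed (adjusted p = 0.0246 by edgeR's quasi-likelihood test). DESeq2 also called it (adjusted p = 0.0209). Without KO 1 it was 1.33.

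**Figure D1:**
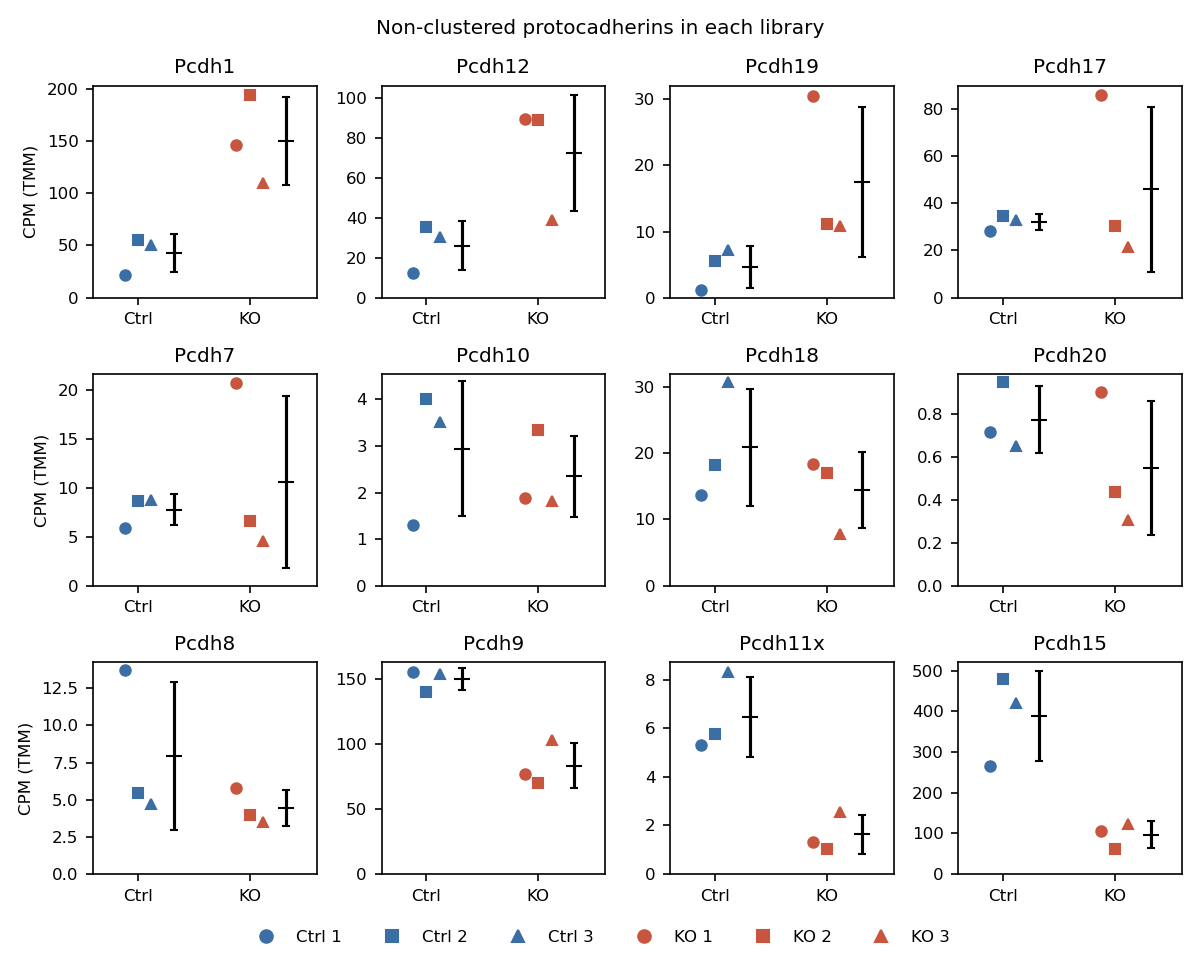
Each panel plots 1 non-clustered protocadherin in CPM (linear axis from 0). Points are the 6 libraries, with Ctrl on the left and KO on the right, and the black bar is the group mean ± SD. Pcdh1, Pcdh12 and Pcdh19 are higher in every KO library and Pcdh9, Pcdh11x and Pcdh15 lower in every KO library. KO 1 alone is high for Pcdh7 and Pcdh17.

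Pcdh15 forms the tip links of hair cells in the inner ear and is also made in photoreceptors (counted entry NM_001142746, spanning 827865 bases; RefSeq places the gene at chromosome 10, 73096277 to 74649831, plus strand). The Ctrl libraries held 266.0, 479.7 and 420.0 CPM of it and the KO libraries 105.9, 61.5 and 124.3 CPM. Each KO library fell below each Ctrl library with a wide gap between the groups. Means were 388.5 ± 110.3 CPM for Ctrl and 97.2 ± 32.3 CPM for KO (SD, n = 3 each), so Ctrl was 4.00-fold KO. The log2 fold change of −2.00 (SE 0.355) passed edgeR's quasi-likelihood test (adjusted p = 0.0229). It did not pass without Ctrl 1, Ctrl 2, Ctrl 3 or KO 2, with values from −2.21 to −1.73.

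The fall was present in both portions into which the Pcdh15 counts were split. The entries span introns, and exon reads were not counted apart. The shortest of its 4 distinct entries, 685733 bases, held 235.7, 431.4 and 375.6 CPM in Ctrl against 89.3, 50.6 and 114.2 CPM in KO. Reads of the longest entry that the shortest did not hold came to 30.2, 48.3 and 44.4 CPM in Ctrl against 16.6, 10.9 and 10.1 CPM in KO. Both portions separated the groups in the same direction. Rod and cone markers fell in 3 of 14 cases, rose in 0 and had a median log2 fold change of −1.32. The part of photoreceptor RNA in the Pcdh15 difference was not tested.

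Pcdh11x, a protein of neurons, lies on the X chromosome (120290238 to 120910622, plus strand). It was 5.30, 5.78 and 8.34 CPM in the Ctrl libraries and 1.33, 1.04 and 2.54 CPM in the KO libraries, from 26 to 155 counts per library. All KO libraries lay below all Ctrl libraries. Its log2 fold change of −1.98 (SE 0.487) passed edgeR's quasi-likelihood test (adjusted p = 0.0424). With GC offsets it was −1.57 and did not pass (adjusted p = 0.0717 by edgeR's quasi-likelihood test), nor did it pass without Ctrl 1, Ctrl 2, Ctrl 3 or KO 2. Both X-linked members, Pcdh11x and Pcdh19, were thus measured in Xist-high Ctrl and Xist-low KO libraries, and they differed in opposite directions.

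Pcdh9, made in neurons of brain and retina (chromosome 14, 93013700 to 93892834, minus strand), was 155.0, 140.0 and 153.6 CPM in Ctrl against 76.8, 70.1 and 102.6 CPM in KO. The Ctrl libraries were tightly grouped and all lay above KO. The log2 fold change was −0.85 (SE 0.240), short of the threshold of edgeR's quasi-likelihood test (adjusted p = 0.0599). DESeq2 (adjusted p = 0.0205), limma-voom (adjusted p = 0.0489), edgeR with library size alone (adjusted p = 0.0454) and edgeR without KO 1 (adjusted p = 0.0462) placed it past the threshold. With GC offsets it was −0.42 by edgeR, with the highest adjusted p of its alternatives (0.345).

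In the other 6 non-clustered members the groups overlapped and edgeR, DESeq2 and limma-voom called no change. Pcdh17, which helps arrange axons and synapses, was 28.1, 34.5 and 33.0 CPM in Ctrl against 85.9, 30.2 and 21.4 CPM in KO (log2 fold change 0.52, SE 0.492, adjusted p = 0.505 by edgeR's quasi-likelihood test). Pcdh7, an adhesion protein found in neurons and other cells, was 5.91, 8.67 and 8.73 CPM in Ctrl against 20.7, 6.57 and 4.56 CPM in KO (log2 fold change 0.45, SE 0.571, adjusted p = 0.631 by edgeR's quasi-likelihood test). In both genes only KO 1 was above the Ctrl libraries, and without KO 1 the log2 fold changes were −0.23 for Pcdh17 and −0.41 for Pcdh7. Pcdh7 shares its stretch with the non-coding gene 4932441J04Rik (10.2 to 21.2 CPM), so its counts are uncertain. Other rows of the table also overlap Pcdh8 (Gm9748), Pcdh10 (1700027H10Rik), Pcdh17 (9630013A20Rik) and Pcdh19 (Gm26851), and shared reads there cannot be split without strand.

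Pcdh8, a protein of synapses that is taken up on activity, ranged from 4.69 to 13.7 CPM in Ctrl and from 3.53 to 5.80 in KO, with Ctrl 1 far above the rest (log2 fold change −0.85, SE 0.501). Pcdh18 ranged from 13.7 to 30.8 CPM in Ctrl and from 7.85 to 18.4 in KO (−0.53, SE 0.437). Pcdh10, an adhesion protein of growing axons, ranged from 1.30 to 4.00 CPM in Ctrl and from 1.82 to 3.35 in KO (−0.32, SE 0.567). Pcdh20 was near the filter on low counts, with 0.652 to 0.949 CPM in Ctrl against 0.309 to 0.902 in KO (−0.50, SE 0.684). These 4 had adjusted p-values of 0.288, 0.442, 0.737 and 0.660 by edgeR's quasi-likelihood test. Across the 12 non-clustered genes, 3 were higher and 3 lower without overlap between groups, beside 19.0% and 18.9% of all tested genes (37.9% in either direction).

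The start regions of Pcdh15, Pcdh9 and Pcdh19 are shown because these genes stood apart between the groups. Each window runs from 250 bases before a RefSeq start site to 50 after it (GRCm38.p6), at chr10:73821617-73821916 on the plus strand for Pcdh15, chr14:93890630-93890929 on the minus strand for Pcdh9 and chrX:133688944-133689243 on the minus strand for Pcdh19. The Pcdh15 and Pcdh9 windows lie inside the gene spans given above, so their start sites are not at the outer end of those spans. Capitals mark a TATA box (TATAAA) in Pcdh15 and a GC box (GGGCGG, here on the opposite strand) in Pcdh19.
Pcdh15: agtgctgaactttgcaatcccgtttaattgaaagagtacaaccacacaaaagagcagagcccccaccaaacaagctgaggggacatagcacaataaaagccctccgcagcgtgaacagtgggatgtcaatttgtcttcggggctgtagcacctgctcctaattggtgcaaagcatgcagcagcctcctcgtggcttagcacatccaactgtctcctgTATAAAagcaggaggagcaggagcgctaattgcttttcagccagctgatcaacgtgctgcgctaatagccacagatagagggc
Pcdh9: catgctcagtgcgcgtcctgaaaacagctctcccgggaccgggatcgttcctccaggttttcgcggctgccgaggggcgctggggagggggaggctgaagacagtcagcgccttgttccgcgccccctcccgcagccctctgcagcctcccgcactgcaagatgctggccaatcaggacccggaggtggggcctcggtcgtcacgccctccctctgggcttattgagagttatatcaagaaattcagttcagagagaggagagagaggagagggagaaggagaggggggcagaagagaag
Pcdh19: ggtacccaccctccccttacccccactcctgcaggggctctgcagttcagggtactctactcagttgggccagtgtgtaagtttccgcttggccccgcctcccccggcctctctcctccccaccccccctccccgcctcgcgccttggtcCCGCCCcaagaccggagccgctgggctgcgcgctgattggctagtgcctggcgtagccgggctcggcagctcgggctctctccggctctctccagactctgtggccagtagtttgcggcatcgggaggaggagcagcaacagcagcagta

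The search covered both strands of the windows of 9 non-clustered members. It took the TATA box (letters TATAAA), the GC box (letters GGGCGG), a site of the photoreceptor factors CRX and OTX2 (letters TAATCC) and a site of ETS factors (letters CCGGAAG). Pcdh1, Pcdh12 and Pcdh11x were not used here. The TATA box was found in Pcdh15, 33 bases before the start site, and in Pcdh8, 30 bases before it, beside 13.6% of 32851 RefSeq promoter windows of the same length. The GC box was found once each in Pcdh10, Pcdh17, Pcdh18 and Pcdh19, beside 35.7% of all windows. The windows of Pcdh7, Pcdh9 and Pcdh20 held none of these letters. The CRX and OTX2 site, present in 7.06% of all windows, and the ETS site, present in 8.86%, were in none of these 9 windows. The 4 motifs shared no bases in these windows.

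The clusters lie in a row on chromosome 18 (plus strand): Pcdha from 36930285 to 37187657, Pcdhb from 37294840 to 37521419 and Pcdhg from 37661775 to 37841870. The readthrough gene Gm37013 spans them and is a row of its own in the table (459.0 to 593.1 CPM, log2 fold change −0.07), so clustered counts are also held there. Entries of a Pcdha or Pcdhg member run from its first exon to the common end of the cluster and were counted over that whole span. Of 204 differences between consecutive nested entries over the 6 libraries, 0 were below 0. The Pcdha1 row therefore holds every read of the Pcdha cluster, and the Pcdhga1 row every read of the Pcdhg cluster. Added up, the 14 Pcdha rows of Ctrl 1 give 13335 counts, while the cluster counted once gives 1045. For Pcdhg the same sums are 154155 and 8795. To read each member apart, the reads between 1 member's start and the next member's start were taken as its own stretch. The reads from the last member (Pcdhac2 or Pcdhgc5) to the cluster's end were kept as the last stretch, which holds that member's first exon together with the shared exons. Own stretches include any intron reads before the next start.

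The Pcdha cluster fell in KO. Its whole, the Pcdha1 row, was 35.7, 28.7 and 31.4 CPM in Ctrl 1, 2 and 3 against 9.06, 10.4 and 12.1 CPM in KO 1, 2 and 3. All KO libraries lay far below all Ctrl libraries. Means were 31.9 ± 3.55 CPM and 10.5 ± 1.53 CPM (SD, n = 3 each), a ratio of Ctrl to KO of 3.03. The log2 fold change was −1.60 (SE 0.271) and passed edgeR's quasi-likelihood test (adjusted p = 0.0224). The last row, Pcdhac2, which is the last stretch, was 26.7, 19.9 and 24.2 CPM in Ctrl against 6.47, 6.25 and 9.12 CPM in KO (log2 fold change −1.70, SE 0.308, adjusted p = 0.0231 by edgeR's quasi-likelihood test). The rows between them, Pcdha2, Pcdha3, Pcdha4 and Pcdha10 among them, gave −1.70 to −1.57, which repeats this 1 measurement. Those 14 rows were past the threshold by edgeR, DESeq2 and limma-voom, under each scaling and with GC offsets, and none was without Ctrl 1, Ctrl 2, Ctrl 3 or KO 2 (Pcdha1 from −1.67 to −1.51). Neuron markers differed beside this result in both directions. Of 15 bipolar and amacrine markers 4 fell and 0 rose (median log2 fold change −0.72). Of 7 tested ganglion cell markers 2 rose (Rbpms and Sncg) and 0 fell, with 3 estimates below 0. Their sum was 267.8 to 279.3 CPM in Ctrl against 396.1 to 434.2 in KO, where Rbpms alone went from a mean of 77.2 to 263 CPM. The median log2 fold change of the 7 was 1.19. Isl1 (178.6 to 90.5 CPM, log2 fold change −0.98) and Pou4f1 (3.38 to 1.39 CPM, −1.28) were lower in every KO library and were not called by edgeR. Nefl (6.23 to 14.2 CPM, 1.19) and Nefm (1.35 to 3.32 CPM, 1.29) were higher in every KO library and were not called either. The part of these markers in the Pcdha difference was not tested.

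The last stretch, 43688 bases long, held 59.9% to 77.3% of the cluster's counts in the 6 libraries. The own stretches of the other 13 Pcdha members were thin, and 7 of them passed the filter on low counts. All 7 estimates were below 0 (median −1.52). In 4 of the 7 the groups did not overlap, with KO lower, beside 18.9% of all tested genes. A stretch could pass the filter through Ctrl alone, as that of Pcdha10 did, so these tallies lean toward KO lower. Among the stretches left out, that of Pcdha5 had means of 0.0633 CPM in Ctrl and 0.338 in KO. By DESeq2 over all 13, 11 estimates were below 0 and 2 above (median −1.31). None of the 7 was called by edgeR's quasi-likelihood test, where 5.78% of rows in this fit were higher and 4.27% lower. By that test 3 of the 7 had an unadjusted p under 0.05, beside 30.5% of all rows. DESeq2, by which 9.66% of rows were lower, called 1. The stretch of Pcdhac1, a C-type member, was 2.58, 1.49 and 1.44 CPM in Ctrl against 0.512, 0.962 and 0.448 CPM in KO (−1.52, SE 0.614). That of Pcdha10 was 1.65, 1.04 and 0.721 CPM in Ctrl against 0, 0.241 and 0.241 in KO (−2.78, SE 1.02), and DESeq2 called it (adjusted p = 0.0487). The stretch of Pcdha4 was 0.860, 1.16 and 0.524 CPM in Ctrl against 0.315, 0.0401 and 0.173 in KO (−2.25, SE 0.857). These 3 had adjusted p-values of 0.141, 0.112 and 0.124 by edgeR's quasi-likelihood test. The stretch of Pcdha1 held no read in any Ctrl library and 2 reads in 1 KO library, so the Pcdha1 row says nothing of the Pcdha1 first exon.

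**Figure D2:**
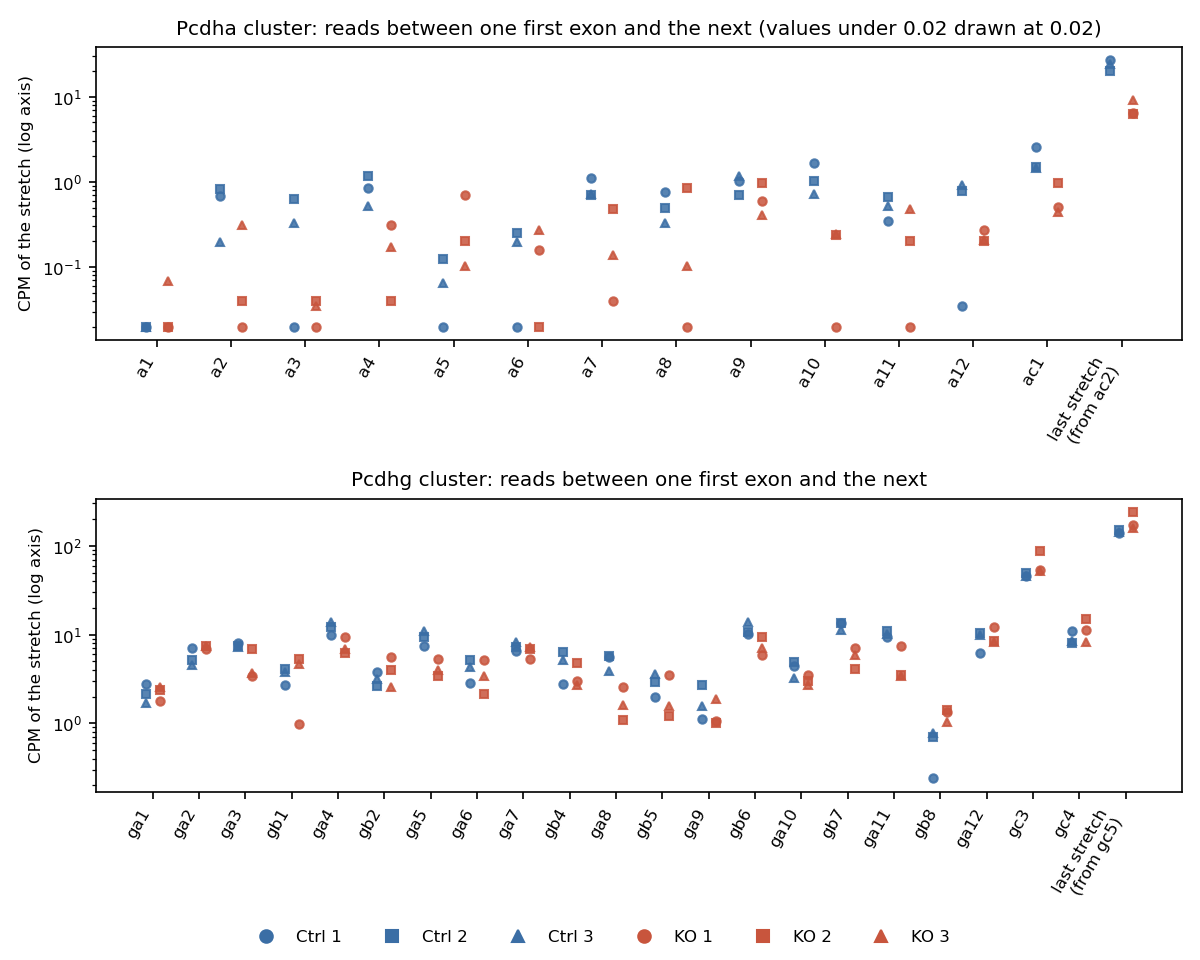
Reads between each first exon and the next, in CPM on a log axis, for the Pcdha cluster (top) and the Pcdhg cluster (bottom), in order along the chromosome. Points are libraries (Ctrl blue, KO red). The Pcdha last stretch and the stretches of Pcdha4, Pcdha7, Pcdha10 and Pcdhac1 are lower in all 3 KO libraries. In the Pcdhg cluster those of Pcdhga3, Pcdhga4, Pcdhga5, Pcdhga8, Pcdhgb6, Pcdhgb7 and Pcdhga11 are lower in all 3. Those of Pcdhgb8, Pcdhgc3 and the Pcdhg last stretch are higher.

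The Pcdhg rows gave another picture. As deposited, all 22 had estimates above 0, from 0.14 to 0.41 with a median of 0.24, and 0 passed edgeR's quasi-likelihood test, 0 had an unadjusted p under 0.05, and DESeq2 and limma-voom called 0. With GC offsets 4 of the 22 estimates were below 0, and without KO 2 it was 1. The whole cluster, the Pcdhga1 row, was 300.5, 331.6 and 316.2 CPM in Ctrl against 325.3, 422.6 and 298.0 CPM in KO (log2 fold change 0.14, SE 0.236, adjusted p = 0.719 by edgeR's quasi-likelihood test), and the groups overlapped. The Pcdhga2 row, which differs from it by the first stretch, had the same estimate of 0.14. The last row, Pcdhgc5, was 138.5, 150.4 and 140.8 CPM in Ctrl against 169.6, 238.2 and 159.4 CPM in KO. There each KO library was above each Ctrl library, with KO 2 the highest, and the estimate of 0.40 (SE 0.242) missed the threshold of edgeR's quasi-likelihood test (adjusted p = 0.299). Counting the groups that did not overlap, 6 of the 22 nested rows were higher, beside 19.0% of all tested genes. All 6 were rows at the 3' end of the cluster. These rows count many of the same reads, so they are not 6 separate results.

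Read stretch by stretch, most estimates upstream in the Pcdhg cluster were below 0 and those of its C-type end above 0. Levels in this fit are slightly higher, since shared reads enter the library totals once. Of the 19 own stretches of A-type and B-type members (Pcdhga and Pcdhgb), 13 had estimates below 0 and 6 above, with a median of −0.44. In 7 of the 19 the groups did not overlap with KO lower, and in 1 with KO higher, beside 18.9% and 19.0% of all tested genes. No Pcdhg stretch passed edgeR's quasi-likelihood test in this fit (4 of 22 had an unadjusted p under 0.05, beside 30.5% of all rows), while DESeq2, by which 9.66% of rows were lower, called 3 of them lower: Pcdhga5, Pcdhga8 and Pcdhgb7. Without KO 1, where 14.5% of rows were lower, edgeR called these 3 and Pcdhga11 lower.

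The stretch of Pcdhgb7 was 13.7, 13.4 and 11.4 CPM in Ctrl against 7.02, 4.05 and 5.97 CPM in KO. Its log2 fold change was −1.17 (SE 0.340, adjusted p = 0.0630 by edgeR's quasi-likelihood test), whereas the Pcdhgb7 row as deposited gave 0.31. The stretch of Pcdhga8 was 5.61, 5.69 and 3.93 CPM in Ctrl against 2.56, 1.08 and 1.62 in KO. It gave −1.53 (SE 0.474, adjusted p = 0.0742 by edgeR's quasi-likelihood test) against 0.23 for the row. In both stretches every KO library was lower than every Ctrl library, so the sign of these 2 members depended on whether shared reads were left in. Pcdhga5 behaved alike, with 7.40, 9.34 and 10.9 CPM in Ctrl against 5.32, 3.41 and 4.04 in KO (−1.11, SE 0.36) against 0.18 for the row. Pcdhga11 had 9.46, 11.0 and 10.3 CPM in Ctrl against 7.45, 3.53 and 3.42 in KO (−1.09, SE 0.409) against 0.36. Their adjusted p-values were 0.0831 and 0.119 by edgeR's quasi-likelihood test. Among the 6 with estimates above 0, the stretch of Pcdhga2 overlapped between groups, with 6.98, 5.19 and 4.59 CPM in Ctrl against 6.98, 7.42 and 7.38 in KO (0.38, SE 0.340).

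**Figure D3:**
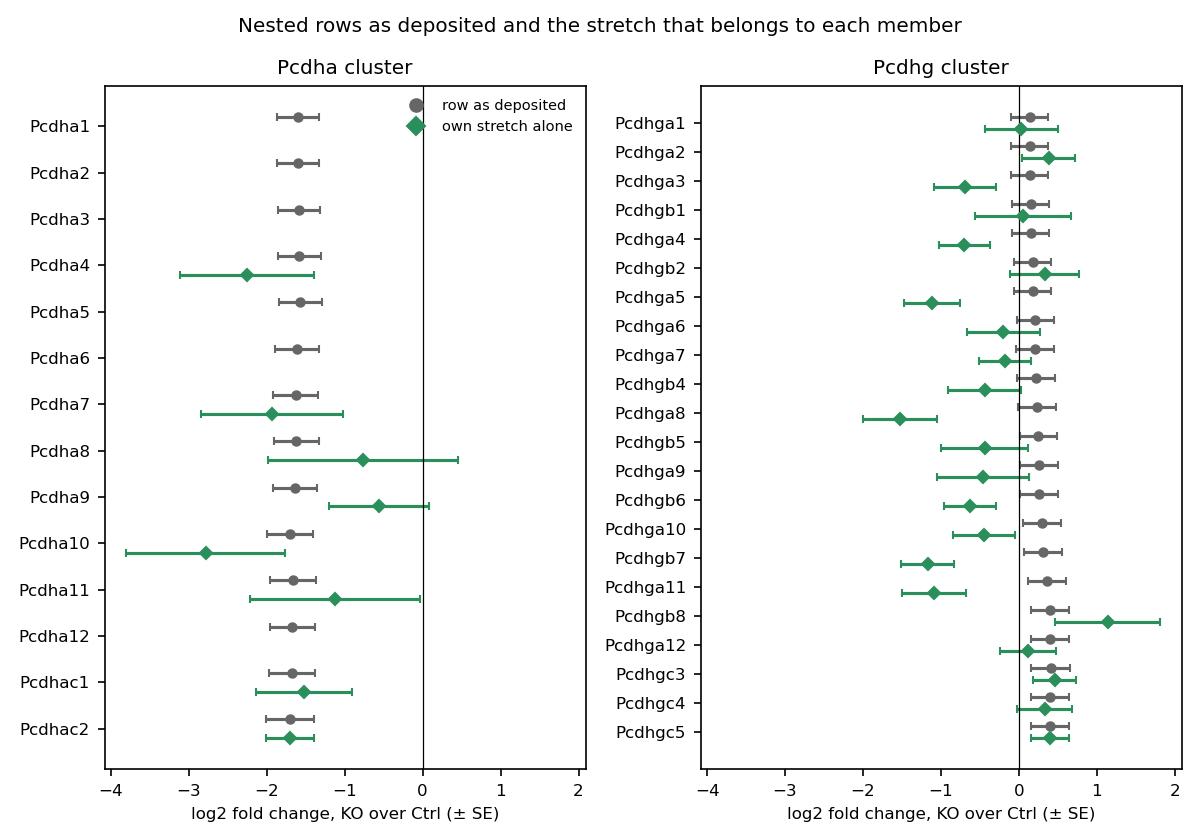
Log2 fold change in KO against Ctrl, with bars for the standard error, for every Pcdha and Pcdhg member, from the row as deposited (grey circles) and from its own stretch (green diamonds, where it passed the filter). Members are in chromosome order from the top. The grey rows drift from 0.14 to 0.41 down the Pcdhg cluster, while the green values of Pcdhga5, Pcdhga8, Pcdhgb7 and Pcdhga11 lie below −1.

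At the C-type end of Pcdhg the estimates were above 0. The stretch of Pcdhgc3, a member made in many cell types, was 45.2, 50.0 and 46.0 CPM in Ctrl against 53.8, 87.9 and 52.4 CPM in KO. All KO libraries were above all Ctrl libraries, most of all KO 2, but the log2 fold change of 0.46 (SE 0.273) missed the threshold of edgeR's quasi-likelihood test (adjusted p = 0.292). Without KO 2, the library with high microglial markers (12995 CPM), it was 0.20, and for the last stretch 0.22 in place of 0.40. The part of those markers was not tested. The stretch of Pcdhgc4, a member needed for the survival of neurons, was 11.1, 8.14 and 8.38 CPM in Ctrl against 11.3, 15.1 and 8.28 in KO, with overlap (0.33, SE 0.348). Pcdhgb8, which RefSeq holds as a transcribed pseudogene, had an own stretch of 0.241, 0.706 and 0.786 CPM in Ctrl against 1.34, 1.40 and 1.03 in KO (1.14, SE 0.672).

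The share of the Pcdhg cluster's reads in A and B stretches did not overlap between the groups. The A and B stretches held 35.3% (95% Wilson interval 34.3 to 36.3), 37.2% (36.2 to 38.3) and 38.3% (37.0 to 39.7) of the cluster's counts in Ctrl 1, 2 and 3. In KO 1, 2 and 3 they held 28.0% (27.0 to 28.9), 19.4% (18.7 to 20.2) and 26.3% (25.3 to 27.2). These intervals cover counting error only, and no KO library reached the Ctrl range. Means were 36.9% ± 1.52 in Ctrl and 24.6% ± 4.55 in KO (SD, n = 3 each). The Pcdhgc3 stretch took 14.5% to 15.0% in Ctrl and 16.5% to 20.7% in KO, and the last stretch 44.5% to 46.1% in Ctrl and 52.1% to 56.4% in KO, with intervals no wider than 1.98 and 2.80 percentage points. This split of the cluster was chosen after its values were seen, and with 3 against 3 an exact test cannot go below 0.1, so the shares are given without a test. In CPM the A and B stretches summed to 107, 124 and 122 in Ctrl and to 91.4, 82.5 and 78.8 in KO, and no KO library reached the Ctrl range in level either.

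**Figure D4:**
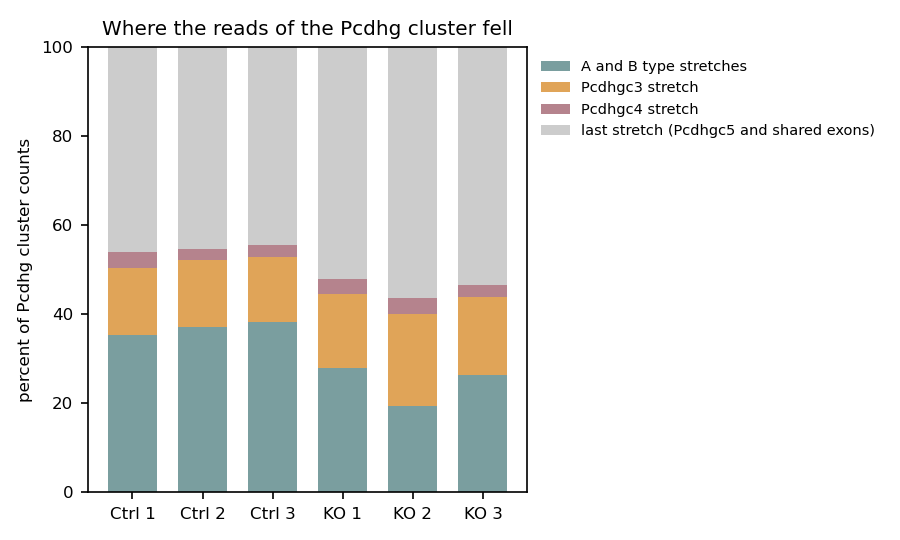
Share of the Pcdhg cluster's counts in each library by stretch, in percent (stacked bars from 0 to 100). The A and B portion takes 35.3% to 38.3% in Ctrl and 19.4% to 28.0% in KO, and the Pcdhgc3 stretch and the last stretch are larger in KO.

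Pcdhb genes do not share exons, so each row is its own measurement, although near-identical stretches among them could divert reads between copies. Of the 21, 18 had estimates below 0, with a median of −0.59. None passed edgeR's quasi-likelihood test, and DESeq2 and limma-voom each called 1. An unadjusted p under 0.05 was found in 2 of the 21, beside 30.5% of all tested genes. In 5 of 21 the groups did not overlap with KO lower and in 1 with KO higher, beside 18.9% and 19.0% of all genes. With GC offsets 13 of 21 estimates were below 0 (median −0.36). Summed, the Pcdhb genes came to 122, 134 and 140 CPM in Ctrl against 110, 108 and 73.9 CPM in KO.

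Per kilobase of counted length, Pcdhb20 and Pcdhb17 were the most abundant Pcdhb genes in both groups. Pcdhb20 stood at 6.55 ± 1.01 CPM per kilobase in Ctrl and 4.36 ± 1.26 in KO, and Pcdhb17 at 5.95 ± 0.372 and 5.17 ± 2.04 (SD, n = 3 each). These neighbours in the order did not differ beyond their spread. Pcdhb16 came next in Ctrl (2.64 ± 0.214), well below them, and Pcdhb3 and Pcdhb2 were last (0.455 ± 0.357 and 0.444 ± 0.0259). In CPM, Pcdhb20 was 18.5, 25.3 and 23.0 in Ctrl and 19.5, 11.1 and 13.9 in KO, with overlap through KO 1 (log2 fold change −0.59, SE 0.314, adjusted p = 0.242 by edgeR's quasi-likelihood test). Pcdhb17 was 18.7, 18.8 and 20.9 CPM in Ctrl against 22.1, 19.2 and 9.39 in KO (−0.20, SE 0.359, adjusted p = 0.737 by edgeR's quasi-likelihood test). Only KO 3 was low, and the sign turned without KO 3 (0.13) and with GC offsets (0.16).

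**Figure D5:**
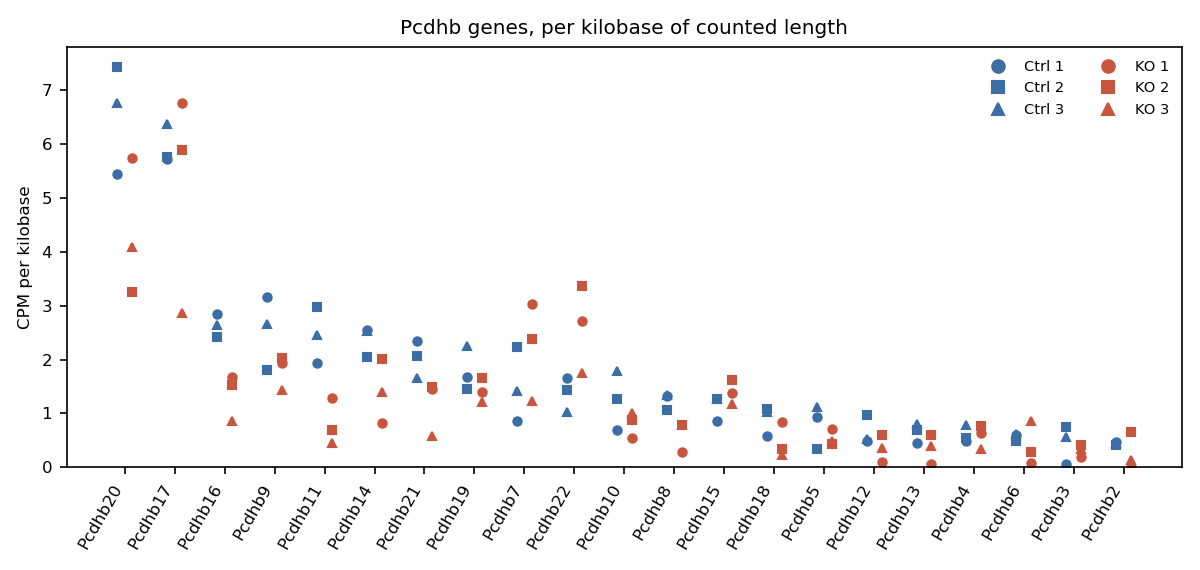
CPM per kilobase of counted length for each Pcdhb gene, ordered by the Ctrl mean. Points are libraries (Ctrl blue, KO red). Pcdhb20 and Pcdhb17 stand above the rest in both groups. Pcdhb8, Pcdhb11, Pcdhb14, Pcdhb16 and Pcdhb21 are lower in every KO library and Pcdhb22 is higher in every KO library.

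A few Pcdhb genes were picked out after their values were seen. Pcdhb11 was 7.01, 10.7 and 8.86 CPM in Ctrl against 4.67, 2.47 and 1.65 CPM in KO, lower in every KO library. Its log2 fold change was −1.60 (SE 0.473, adjusted p = 0.0659 by edgeR's quasi-likelihood test), and DESeq2 called it. Pcdhb16 was 15.0, 12.8 and 14.0 CPM in Ctrl against 8.86, 8.09 and 4.49 in KO (−0.96, SE 0.355, adjusted p = 0.116 by edgeR's quasi-likelihood test). Pcdhb22 went the other way, with 5.09, 4.42 and 3.13 CPM in Ctrl against 8.31, 10.3 and 5.35 in KO, again without overlap (0.92, SE 0.401, adjusted p = 0.165 by edgeR's quasi-likelihood test). Without KO 1, edgeR called Pcdhb11 (−2.03) and Pcdhb18 (−1.57) lower, in a fit that called 14.5% of all genes lower.

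Genes that act on or with protocadherins were read from 3 lists. Of 16 factors known to act at the clustered locus (CTCF, cohesin and its loaders, and silencing factors such as Smchd1 and Setdb1), 0 passed edgeR's quasi-likelihood test, 2 had an unadjusted p under 0.05 (30.5% of all genes did), DESeq2 called 1 and limma-voom 0. Their median log2 fold change was −0.42, with 11 below 0. Ctcf, whose protein joins promoters of the Pcdha cluster to its enhancer, was 53.5, 52.6 and 52.9 CPM in Ctrl against 62.8, 34.0 and 51.0 in KO, with overlap. Of 18 intracellular partners, 2 rose and 1 fell, beside 5.85% and 4.44% of all genes. The list holds 9 subunits of the WAVE complex, which drives actin branching and is bound by several protocadherin tails. The called genes Wasf2, Brk1 and Cyfip2 are among them, and the other 6 (Wasf1, Wasf3, Abi1, Abi2, Cyfip1 and Nckap1) were not called and overlapped between groups. Wasf2 was 43.6, 64.0 and 51.4 CPM in Ctrl against 178.4, 166.4 and 120.4 in KO (1.55, SE 0.269), and Brk1 was 107.2, 96.9 and 102.3 CPM in Ctrl against 199.7, 209.1 and 221.8 in KO (1.04, SE 0.210). Cyfip2, the form used in neurons, fell from 58.3, 59.0 and 49.7 CPM in Ctrl to 19.9, 28.0 and 33.2 in KO (−1.04, SE 0.272). By edgeR's quasi-likelihood test their adjusted p-values were 0.0228, 0.0268 and 0.0487, and Cyfip2 did not pass with RLE scaling, upper quartile scaling or no filter.

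Of 14 tested cadherin relatives, 2 rose and 1 fell, beside the same 5.85% and 4.44%. Cdh5, the cadherin of endothelial junctions, was 164.2, 280.6 and 271.8 CPM in Ctrl against 540.7, 490.0 and 501.6 in KO (1.10, SE 0.274), and Cdh13, a cadherin of vessels without a cytoplasmic tail, rose by 0.94 (SE 0.246). Cdhr1, a photoreceptor cadherin once named as a protocadherin, fell from 1142, 800.9 and 749.3 CPM to 154.6, 295.4 and 423.7 (−1.62, SE 0.392). In all 3 the groups did not overlap, and their adjusted p-values were 0.0441, 0.0495 and 0.0404 by edgeR's quasi-likelihood test. Cdh5 and Cdh13 did not pass with GC offsets or with library size alone. Pcdh1 and Cdh5 were both higher in KO, and Pcdh15 and Cdhr1 both lower. Cdh5 is itself on the endothelial marker list, so it is not separate from that list's shift. The part of the endothelial and photoreceptor marker shifts in these genes was not tested.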

How the data were processed

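RNA-seq was compared between 3 Ctrl and 3 KO libraries of CD31-sorted mouse retinal cells. Per the labels' protocols, polyadenylated RNA was amplified as full-length cDNA from low input and read as single 50-base reads, a preparation that does not mark the strand. Per the submitters' processing notes, Trimmomatic 0.36, STAR, DESeq2, edgeR, deepTools and build mm10 were used, with no role or order. Which counter and annotation were used is not given in the sources used here. Per the file headers, the authors deposited raw counts for each transcript entry, normalized counts (a signal, here the count divided by 1 factor per library) and RPKM. The deposited table also gives a length, a log2 fold change with its standard error, a Wald score and p-values from DESeq2. The deposited length is the genomic span, so RPKM was not used. Rows of long genes such as Pcdh9, Pcdh11x and Pcdh15 may hold intron reads, which were not split from exon reads. The count column taken as Ctrl 3 carries another number in its name. It was the only Ctrl count column left, and its ratio to the normalized column was constant.

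The longest entry of each symbol was used. edgeR 4.0.16 (R 4.3.3) tested KO against Ctrl with the quasi-likelihood method, TMM, filterByExpr (minimum count 10), no covariate and Benjamini-Hochberg adjustment over 16217 genes, two-sided at 0.05. The SE is the log2 fold change divided by the square root of F. A second fit over the whole table replaced the nested Pcdha and Pcdhg rows by their stretches. Scripts were tested on simulated data. Alternatives were DESeq2 1.42.0, limma-voom (limma 3.58.1), other scalings, no filter, the entry with most counts, the replicate number as a block, GC offsets and each library left out. Levels are CPM with TMM scaling, and p-values measure the spread between pups. Coordinates are RefSeq's on GRCm38.p6 (the assembly of mm10), 1-based, matched by accession for 68 of 69 members (Pcdhgb8 by symbol). Promoter windows are RefSeq's on the same assembly, used for 9 of the 12 non-clustered members. Summaries and plots used matplotlib 3.10.9, scipy 1.17.1, numpy 2.4.6 and pandas 2.3.3 in Python 3.11.15.

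Members and lists were chosen with earlier results of these data known. Named were all 12 non-clustered genes. For each cluster the rule took up to 5 members past the threshold by smallest p, the 2 of highest CPM and the first and last nested members. It also took the called genes of 3 related lists with Cdh5, Cdhr1 and Rnf20. Others were named after their values were seen: Pcdhb2, Pcdhb3, Pcdhb11, Pcdhb16, Pcdhb18, Pcdhb22, Ctcf, the uncalled WAVE subunits, Isl1, Pou4f1 and the single stretches other than the last. So were Pcdhb8, Pcdhb14, Pcdhb21, Nefl and Nefm. The GC offsets and 4 alternatives for the stretches were added after the data were seen. The marker lists not given in the report moved as follows: Müller glia and astrocytes 3 of 12 higher, mural cells 1 of 12 higher, red blood cells 4 of 5 higher, and microglia 0 of 14 called by edgeR, DESeq2 or limma-voom, with 0 at an unadjusted p under 0.05, their sum being highest in KO 2 (12995 CPM).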

Additional observations from a re-analysis of the deposited data

How the results depend on the processing

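With DESeq2, 2027 of all tested genes were higher and 1529 lower, and 3 non-clustered protocadherins were higher. GC offsets gave 1200 genes lower and 1 non-clustered member lower. Leaving out 1 library in turn gave 0 to 2520 genes higher and 0 to 2407 lower, 0 to 16 clustered members lower, 0 to 1 non-clustered members higher and 0 to 3 lower, and 0 to 5 stretches lower, against 1 stretch in the full data and 5 with DESeq2. These fits measure spread from fewer libraries. With the replicate number as a block, 1 gene was higher and 0 lower, and 0 clustered members, 0 non-clustered members and 0 stretches were called. In that edgeR fit 20 of the 69 members had an unadjusted p under 0.05, beside 3407 of 16217 genes. The 69 include nested rows that count the same reads. The replicate numbers do not pair the pups by any label, and the correlations of same-numbered deviations were −0.39, 0.07 and −0.26. Signs turned without KO 1 for Pcdh17 (−0.23, range to 0.89 over the libraries left out) and Pcdh7 (−0.41, range to 0.83), for Pcdhb17 without KO 3 (0.13, range from −0.36) and with GC offsets (0.16), and for the Pcdhga2 row with GC offsets (−0.08). They also turned between stretch and deposited row for Pcdhgb7 (0.31), Pcdhga8 (0.23) and Pcdhga5 (0.18), where the row adds the reads of all later stretches. Other causes were not tested. Of 548 values of single genes and stretches under these alternatives, 429 kept direction and side of the threshold, 93 lost it, 18 gained it and 8 turned. Depth limits the Pcdha stretches, 6 of 13 of which were too thin to test.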
